A study of Mus musculus with 9 samples.

Results

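The CDK inhibitors and D-type cyclins examined here are 10 genes: the CIP/KIP inhibitors Cdkn1a, Cdkn1b and Cdkn1c, the INK4 inhibitors Cdkn2a, Cdkn2b, Cdkn2c and Cdkn2d, and the cyclins Ccnd1, Ccnd2 and Ccnd3. They were taken by gene symbol from the 57180 Ensembl identifiers of the count table, and 9 of the 10, together with 13405 genes in all, passed the filter on low counts. The transcripts were measured by RNA-seq in Lgr5-GFP+ intestinal stem cells, the dividing crypt base cells that renew the epithelium, sorted from mice with an Lgr5-EGFP-CreERT2 allele and floxed Kansl1 alleles. The KANSL1 protein holds together the NSL complex, which carries the histone acetyltransferase KAT8. KO day 4 mice had tamoxifen on each of 4 days, KO day 3 mice on each of 3 days, and control mice, whose label is KANSL1-WT, had corn oil instead. Each group has 3 libraries, and all 9 come from animals with the same CreERT2 allele. Cre is made only in cells that use the Lgr5 promoter. Knockout and tamoxifen go together in each comparison with the control, and the number of doses and the time since the first dose go together in the comparison of the KO groups, so these cannot be told apart.

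D cyclins bind the kinases CDK4 and CDK6, which phosphorylate the retinoblastoma protein RB and so release E2F transcription factors that drive S phase genes. INK4 proteins bind CDK4 and CDK6 directly, while CIP/KIP proteins bind cyclin-CDK complexes and inhibit CDK2 most strongly. Cdkn1a, which encodes p21, is the best known target of p53, and intestinal stem cells divide continuously with D cyclin genes among those that respond to Wnt and growth factor signals.

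Library composition differed between the groups. Totals were 11174583 to 16943055 counts at KO day 4, 8400458 to 21484679 at KO day 3 and 12164479 to 17913787 in controls. Transcripts of the mitochondrial genome took 66.9 to 72.1% of counts at KO day 4, 19.0 to 32.5% at KO day 3 and 16.4 to 25.8% in controls. Levels below are CPM, the counts scaled to a common library size after TMM scaling, or RPKM, the same per kilobase of exon, wherever genes are compared with each other. TMM factors were 0.40 to 0.504 at KO day 4, 1.22 to 1.40 at KO day 3 and 1.44 to 1.83 in controls. A pair of libraries stood apart from the others of their group, the library labelled KO day 4 replicate 3 (r = 0.857 and 0.863 with the others of its group across genes) and KO day 3 replicate 1 (0.914 and 0.910), against 0.969 to 0.973 among controls. KO day 3 replicates 2 and 3 correlated at 0.971. KO day 4 replicates 1 and 2 correlated at 0.923, close to the values of KO day 3 replicate 1. Kansl1 was at 2.93, 5.09 and 8.96 CPM in the libraries labelled KO day 4, at 2.81, 2.99 and 2.55 CPM at KO day 3 and at 4.46, 11.4 and 9.83 CPM in controls, so KO day 4 replicates 2 and 3 lay within the control range. Counts over the whole gene can hold reads from outside the deleted exons, so they check the labels only in part. Markers of mast cells summed to 505, 967 and 1481 CPM of nuclear counts at KO day 4, to 226, 24.8 and 70.8 at KO day 3 and to 0.45, 0.72 and 0.10 in controls. Kit, which the controls also express, is not among these markers. In each control library 9 to 12 of the 13 markers were at 0, Fcer1a, Tpsab1, Ms4a2, Csf2rb, Mcpt1, Mcpt2 and Mcpt4 in all 3. Of these, Mcpt1 was also at 0 in all 3 KO day 4 libraries and in KO day 3 replicate 1. Tpsab1 was also at 0 in KO day 4 replicates 1 and 2 and in all 3 KO day 3 libraries. Mcpt2 was also at 0 in KO day 3 replicates 1 and 2. Paneth cell markers added up to 125800 to 172800 CPM of nuclear counts in KO day 4 libraries, 37640 to 56980 at KO day 3 and 23340 to 57850 in controls. Stem cell markers added up to 2862 to 7733 at KO day 4, 12900 to 18540 at KO day 3 and 19090 to 22980 in controls. Tuft cell markers added up to 182 to 462.5 at KO day 4, 14.6 to 28.2 at KO day 3 and 9.70 to 11.2 in controls. Enteroendocrine markers gave 976 to 1213 at KO day 4, 322 to 371 at KO day 3 and 169 to 438.5 in controls. Immune cell markers gave 67.5 to 172 at KO day 4, 7.99 to 45.4 at KO day 3 and 3.40 to 8.58 in controls, and stromal markers 38.65 to 70.3 at KO day 4, 7.205 to 14.9 at KO day 3 and 2.40 to 5.80 in controls. These are bulk samples, in which fewer cells of a type and less RNA per cell cannot be told apart. The part of these other cells in the values below was not tested.

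Cdkn1a (ENSMUSG00000023067, chr17:29090976-29100727, plus strand, GRCm38) has a pair of annotated starts 2790 bases apart, and the 300 bases around each are shown because Cdkn1a was the member with the smallest adjusted p at KO day 4. They are RefSeq sequence of build GRCm38.p6, 250 bases before to 50 after the start, with a p53 response element in capitals in the window of the upstream start and GC boxes (GGGCGG) in capitals in the window of the downstream start.
Cdkn1a upstream start, chr17:29090729-29091028, plus strand: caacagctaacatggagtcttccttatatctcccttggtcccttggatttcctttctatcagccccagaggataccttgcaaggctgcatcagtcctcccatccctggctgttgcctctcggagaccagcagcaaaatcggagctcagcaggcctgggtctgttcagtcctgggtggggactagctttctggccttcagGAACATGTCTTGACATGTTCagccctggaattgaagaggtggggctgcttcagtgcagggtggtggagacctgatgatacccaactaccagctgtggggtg
Cdkn1a downstream start, chr17:29093519-29093818, plus strand: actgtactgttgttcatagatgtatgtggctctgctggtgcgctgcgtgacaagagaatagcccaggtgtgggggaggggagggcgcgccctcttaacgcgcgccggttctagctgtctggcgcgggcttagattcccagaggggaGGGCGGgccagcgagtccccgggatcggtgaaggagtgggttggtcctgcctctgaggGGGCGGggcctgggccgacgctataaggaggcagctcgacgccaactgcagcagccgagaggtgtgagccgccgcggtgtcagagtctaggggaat
Cdkn2c upstream start, chr4:109666707-109667006, minus strand: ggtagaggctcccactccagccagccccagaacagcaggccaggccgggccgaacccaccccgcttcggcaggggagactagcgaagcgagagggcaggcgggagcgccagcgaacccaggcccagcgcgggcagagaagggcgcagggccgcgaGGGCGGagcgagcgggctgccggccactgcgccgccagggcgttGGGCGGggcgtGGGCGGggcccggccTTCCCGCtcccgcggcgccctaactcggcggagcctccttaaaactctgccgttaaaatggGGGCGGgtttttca
The p53 element searched was a run of 2 decamers with no spacer, each 3 purines, the core CATG or its variants with A or T in the middle, and 3 pyrimidines, with at most 1 mismatch outside the cores. The match in Cdkn1a lies 51 to 32 bases before the upstream start and begins 2841 bases before the downstream one. The search was set up after the Cdkn1a window had been read. Of 32851 such windows genome-wide, 18 (0.0548%) held the element and 3 (0.00913%) held it with no mismatch. Of 29 windows of Cdkn1a and other p53 target genes, 2 held it, those of Cdkn1a and Rps27l. A Cdkn2c window is shown because Cdkn2c was the member called lower. Of its 2 windows, that of the upstream start is printed. It holds 4 GC boxes, on the printed strand, and the E2F motif TTCCCGC 25 to 19 bases before the start, all in capitals. The window of the downstream Cdkn2c start, which is not printed, holds neither of these motifs. On either strand, TTCCCGC occurs in 4.6% of windows and GGGCGG in 35.7%. The downstream Cdkn1a window also holds TATAAG, present in 7.43% of windows, 25 to 20 bases before its start. Windows were found for 7 of the 10 genes. A match describes the sequence and does not show that a factor binds there.

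Of the CIP/KIP inhibitors, Cdkn1a rose 12.1-fold at KO day 4, while Cdkn1b and Cdkn1c did not pass the test. In single libraries Cdkn1a was at 96.8, 114 and 123 CPM at KO day 4, at 17.9, 14.0 and 26.7 CPM at KO day 3 and at 8.23, 8.92 and 10.5 CPM in controls. The 3 groups did not overlap: every KO day 4 library was above every KO day 3 library, and every KO day 3 library above every control. The means were 112 ± 13.5 CPM at KO day 4, 19.5 ± 6.48 CPM at KO day 3 and 9.21 ± 1.14 CPM in controls (SD, n = 3 each). The log2 fold change against control was 3.60 at KO day 4 (SE 0.25, edgeR adjusted p = 3.29e-05). The KO day 3 value was 1.09 (SE 0.23, edgeR adjusted p = 0.071) and did not pass in this fit of all 9 libraries. Between the KO times it was 2.51, higher at KO day 4 (SE 0.24, edgeR adjusted p = 0.0005). The KO day 4 rise and the rise over KO day 3 held in every alternative run. With library size alone as the scaling the KO day 4 value was 1.68, which is 3.63 above the median of all genes under that scaling (-1.95). KO day 4 libraries ordered Cdkn1a as they ordered the mast, tuft, immune, enteroendocrine and stromal marker sums, lowest in replicate 1 and highest in replicate 3. Other sums were ordered differently at KO day 4. The Paneth and goblet cell sums were lowest in replicate 2 (goblet 3310, 3048 and 5113 CPM of nuclear counts). The stem cell and enterocyte sums were lowest in replicate 3 (enterocyte 760, 761 and 712). At KO day 3 Cdkn1a and the stromal and goblet cell sums were highest in replicate 3. The mast, tuft, immune and enteroendocrine sums were highest there in replicate 1. The bearing of these orders on Cdkn1a was not tested. The KO day 3 value of Cdkn1a passed in 6 of 20 settings. With all 9 libraries kept, it passed in edgeR with no filter on low counts, in DESeq2 and in limma voom. It also passed without KO day 3 replicate 2 (1.30, edgeR adjusted p = 0.049) or KO day 4 replicate 3 (edgeR adjusted p = 0.047). Without both libraries that stood apart it was 1.15 and passed (edgeR adjusted p = 0.038).

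Cdkn1b, which encodes p27, is an inhibitor held at high protein level in resting cells. It was at 22.9, 18.4 and 18.1 CPM at KO day 4, at 27.3, 38.7 and 20.8 CPM at KO day 3 and at 25.4, 26.9 and 29.0 CPM in controls. All 3 KO day 4 libraries lay below the controls, and KO day 3 libraries lay on both sides of them. Its log2 fold change was -0.45 at KO day 4 (SE 0.24, edgeR adjusted p = 0.195) and 0.09 at KO day 3 (SE 0.23, edgeR adjusted p = 0.90), so neither passed. Cdkn1c encodes p57, which is imprinted and marks resting cells in several tissues. It gave few counts, 23, 20 and 34 at KO day 4, 22, 47 and 78 at KO day 3 and 55, 46 and 32 in controls, which is 2.70, 3.18 and 7.61 CPM at KO day 4, 1.88, 2.04 and 2.76 CPM at KO day 3 and 2.14, 1.52 and 1.44 CPM in controls. KO day 4 libraries lay above the controls, with replicate 3 far above the rest. Against control the log2 difference was 1.38 at KO day 4 (SE 0.52, edgeR adjusted p = 0.076), and 0.78 (edgeR adjusted p = 0.24) without the library labelled KO day 4 replicate 3. For KO day 3 the value was 0.40 (SE 0.50; edgeR, adjusted p = 0.77). Antisense Gm44732 shares 30.7% of the Cdkn1c exon bases and had 0 counts in all 9 libraries.

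Of the INK4 genes, Cdkn2c fell at KO day 4 and Cdkn2a had no count. Cdkn2c encodes p18, an INK4 protein of proliferating cells in the mouse. It was at 10.4, 10.3 and 4.93 CPM at KO day 4, at 22.9, 19.1 and 17.4 CPM at KO day 3 and at 13.7, 18.01 and 17.3 CPM in controls. KO day 4 libraries lay below both other groups, which overlapped each other. The log2 fold change was -0.91 against control (SE 0.29, edgeR adjusted p = 0.041) and -1.19 against KO day 3 (SE 0.29, edgeR adjusted p = 0.024). KO day 3 against control gave 0.28 (SE 0.27; edgeR, adjusted p = 0.69). The KO day 4 call against control held in 11 of 20 settings. It was lost with only the KO day 4 and control libraries in the fit, and in the test against a fold of 1.5. The call also depended on single libraries. It was lost without KO day 4 replicate 2 (adjusted p = 0.054) or replicate 3 (0.065), without KO day 3 replicate 2 (0.065) or replicate 3 (0.052), and without control replicates 1 (0.061), 2 (0.13) and 3 (0.11). Without both libraries that stood apart the KO day 4 value was -0.65 against control and still passed (edgeR adjusted p = 0.032). The call against KO day 3 held in 16 of 20 settings. It was lost without KO day 3 replicate 1 (edgeR adjusted p = 0.053) or replicate 2 (0.063). With only the KO day 4 and KO day 3 libraries in the fit, and against a fold of 1.5, it was lost too.

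Cdkn2b, which encodes p15, gave 12, 29 and 0 counts at KO day 4, 11, 11 and 19 at KO day 3 and 7, 10 and 2 in controls. Per library this was 1.41, 4.61 and 0 CPM at KO day 4, 0.94, 0.48 and 0.67 CPM at KO day 3 and 0.27, 0.33 and 0.09 CPM in controls. KO day 3 libraries lay above the controls, whereas KO day 4 libraries ran from 0 to the highest value of all. In the library at 0, 3 counts would be 0.672 CPM. On the log2 scale KO day 4 was 3.08 above control (SE 1.104, edgeR adjusted p = 0.066), and 3.61 (edgeR adjusted p = 0.0072) without both libraries that stood apart, one of which is the library at 0. Without KO day 4 replicate 2, the library with 29 counts, it was 1.69 (edgeR adjusted p = 0.33). Cdkn2b was called at KO day 4 in 4 of 18 settings, DESeq2 and limma voom with all 9 libraries among them. With at most 10 counts in any control, it passed the low-count filter largely through KO libraries. With only KO day 4 and control libraries it did not pass that filter, so these tests cannot decide a rise over control. KO day 3 gave 1.53 (SE 1.07; edgeR, adjusted p = 0.54). Cdkn2d, which encodes p19 of the INK4 family, gave 38, 7 and 19 counts at KO day 4, 79, 56 and 70 at KO day 3 and 79, 86 and 44 in controls. Its CPM were 4.45, 1.11 and 4.25 at KO day 4, 6.74, 2.43 and 2.48 at KO day 3 and 3.07, 2.84 and 1.98 in controls. All 3 groups overlapped, and the log2 fold change was 0.31 at KO day 4 and 0.54 at KO day 3 (edgeR adjusted p = 0.74 and 0.71). Cdkn2a, which encodes both p16 and ARF, an activator of p53, had 0 counts in all 9 libraries. At these depths 0 counts allow up to 0.0991 to 0.672 CPM per library. It is the 1 member that was not tested.

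Among the D cyclins, Ccnd2 rose at KO day 4, and neither Ccnd1 nor Ccnd3 passed the test against control. Ccnd2 was at 285, 266 and 248 CPM at KO day 4, at 163, 183 and 230 CPM at KO day 3 and at 114, 134 and 130 CPM in controls. The groups did not overlap in TMM-scaled CPM, with KO day 4 above KO day 3 and KO day 3 above the controls. In CPM of nuclear counts, Ccnd2 was at 434, 401 and 356 at KO day 4 and at 281, 330 and 436 at KO day 3. Controls were at 222, 290 and 291 on that scale, so KO day 4 stayed above them and KO day 3 overlapped both other groups. The log2 fold change was 1.08 at KO day 4 (SE 0.16, edgeR adjusted p = 0.0015), a 2.11-fold difference. It was 0.61 for KO day 3 (SE 0.16; edgeR, adjusted p = 0.10) and 0.47 for KO day 4 against KO day 3 (SE 0.16; edgeR, adjusted p = 0.074). The KO day 4 value passed in all 20 settings, but with library size alone the direction turned (-0.82, and 1.13 above the median of all genes, which stood at -1.95). Within KO day 4, Ccnd2 was lowest in replicate 3, the library with the highest mast, tuft, immune, enteroendocrine and stromal marker sums. The bearing of this order on Ccnd2 was not tested.

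Ccnd1 was at 123, 127 and 139 CPM at KO day 4, at 144, 159 and 225 CPM at KO day 3 and at 129, 110 and 110 CPM in controls. In TMM-scaled CPM, KO day 4 overlapped the controls, and KO day 3 lay above both other groups. In CPM of nuclear counts, Ccnd1 was at 187, 192 and 199 at KO day 4 and at 248, 287 and 426 at KO day 3. Controls were at 249, 239 and 244 on that scale, so KO day 4 lay below them and KO day 3 overlapped them. The Ccnd1 log2 fold change was 0.16 at KO day 4 (SE 0.18, edgeR adjusted p = 0.56) and 0.60 at KO day 3 (SE 0.18, edgeR adjusted p = 0.14). LTO1 shares 23.4% of Ccnd1 exon bases on the other strand and gave 4 to 129 counts a library, against 620 to 6351 for Ccnd1. Ccnd3 was at 14.2, 24.8 and 21.05 CPM at KO day 4, at 11.9, 3.51 and 3.08 CPM at KO day 3 and at 16.1, 19.1 and 4.49 CPM in controls. KO day 4 libraries lay above the KO day 3 libraries, and the controls spanned both, control replicate 3 being as low as KO day 3. The log2 fold change was 0.59 at KO day 4 (edgeR adjusted p = 0.49), -1.15 at KO day 3 (edgeR adjusted p = 0.36) and 1.73 between the KO times (SE 0.59, edgeR adjusted p = 0.076). The last passed without KO day 3 replicate 1 (2.58, edgeR adjusted p = 0.022), and the KO day 3 value against control was then -2.01 (edgeR adjusted p = 0.14). Bysl shares 4.11% of Ccnd3 exon bases and gave 236 to 1389 counts a library, against 81 to 579 for Ccnd3, more than Ccnd3 in every library.

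**Figure D1:**
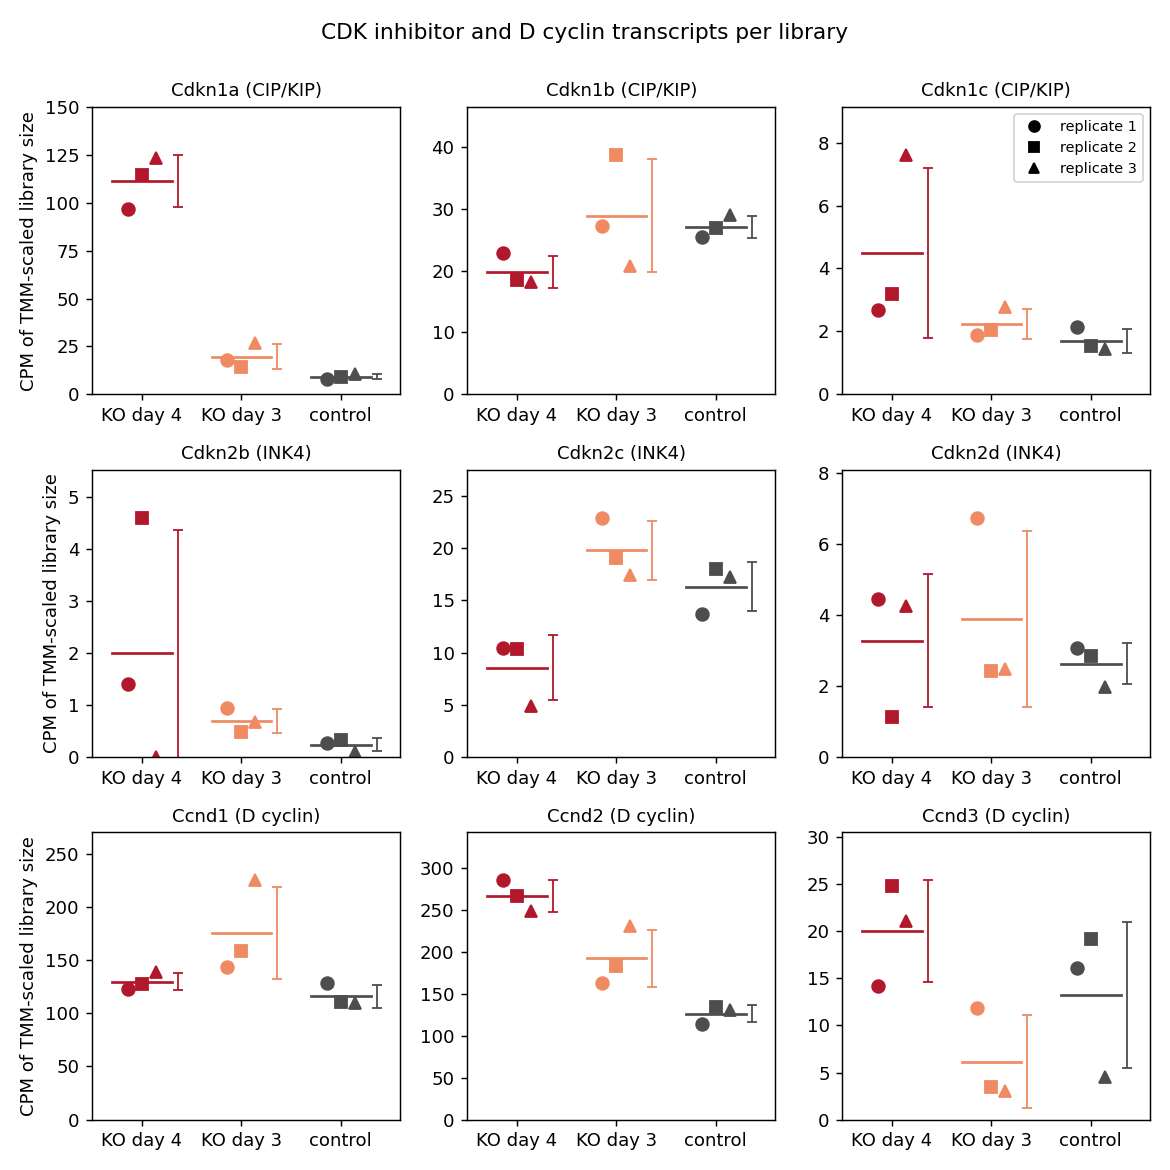
Levels of the 9 tested members in each library, in CPM of TMM-scaled library size, with KO day 4, KO day 3 and control from left to right; points are libraries, the horizontal line is the mean and the bar the SD of 3. Cdkn1a and Ccnd2 stand highest at KO day 4 with no overlap of groups, Cdkn2c stands lowest there, and the lower end of the Cdkn2b bar at KO day 4 is cut at 0.

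Over the 9 tested members, 3 were called at KO day 4 against control, 2 higher and 1 lower, where 22.5% of all tested genes were called (11.1% higher and 11.5% lower). EdgeR called no member at KO day 3, where 0.44% of all genes were called (0.142% higher and 0.298% lower), and 3 members had an unadjusted p under 0.05, as did 15.8% of all genes. Of the 9 members, 4 had KO day 3 libraries apart from the controls, Cdkn1a, Cdkn2b, Ccnd1 and Ccnd2, each above them, where 30.1% of all genes had groups apart and 12.1% lay above. DESeq2, limma voom and edgeR without both libraries that stood apart each called 3 members higher at KO day 3, namely Cdkn1a, Ccnd1 and Ccnd2. Of all genes, 2.93% were called higher by DESeq2, 3.59% by limma voom and 1.39% by edgeR without both libraries. Between the KO times 2 members were called, 1 higher and 1 lower, against 12.5% of all genes (6.52% higher and 6.03% lower). In KO day 4 libraries, 5 members had values apart from control, 3 above and 2 below, where 47.0% of all genes were apart, 20.6% above and 26.4% below. Set against KO day 3, 5 members were apart, 3 above and 2 below, where 32.8% of all genes were apart, 15.8% above and the rest below. The member median log2 fold change was 0.59 for KO day 4 against control, where all genes had -0.06. For KO day 3 it was 0.54, where all genes had -0.02, and for KO day 4 against KO day 3 it was 0.47, where all genes had -0.02.

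**Figure D2:**
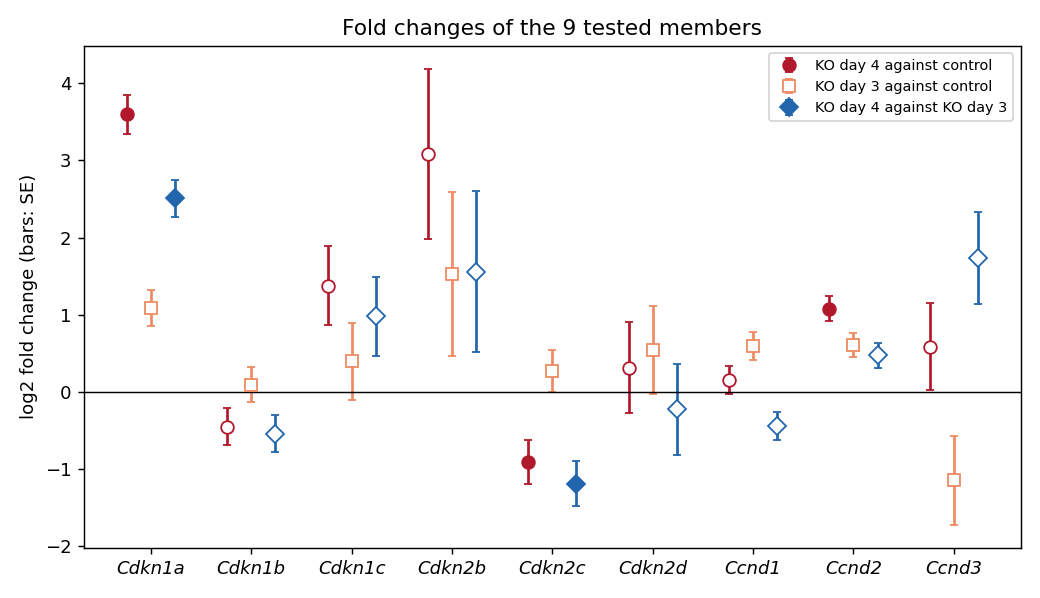
Log2 fold changes of the 9 tested members in the 3 comparisons, with SE as bars; filled symbols passed the test at adjusted p under 0.05. Cdkn1a stands highest among the filled symbols, at 3.60 for KO day 4 against control and 2.51 for KO day 4 against KO day 3.

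Per length, the balance within each family differed with time. Cdkn1a made up 82.7 ± 2.16% of the CIP/KIP level at KO day 4, 42.5 ± 13.3% at KO day 3 and 27.6 ± 1.77% in controls (SD, n = 3 each), and Cdkn1b made up 11.7% at KO day 4, 49.1% at KO day 3 and 63.5% in controls. Single KO day 3 libraries gave 42.2, 29.3 and 55.9% for Cdkn1a, the lowest close to the controls. The summed CIP/KIP level was 37.9 RPKM at KO day 4, 12.9 at KO day 3 and 9.38 in controls. The summed D cyclin level was 58.2 RPKM at KO day 4, 58.5 at KO day 3 (49.2 to 72.6 in single libraries) and 39.6 in controls. The summed levels of each family rest on the TMM scaling. In CPM of nuclear counts, mean Ccnd1 was 193 at KO day 4, 320 at KO day 3 and 244 in controls. Mean Ccnd2 was then 397, 349 and 267 and mean Ccnd3 29.7, 10.9 and 27.6, in the same order. Ccnd2 made up 48.7 ± 3.47% of the summed D cyclin level at KO day 4, 35.1 ± 1.30% at KO day 3 and 34.0 ± 3.98% in controls (SD, n = 3 each). Ccnd1 made up 47.4% at KO day 4, 63.6% at KO day 3 and 62.3% in controls. Cdkn1a over the D cyclins was 0.539 at KO day 4, 0.0931 at KO day 3 and 0.0658 in controls. The whole CIP/KIP family over the D cyclins was 0.652 at KO day 4, 0.226 at KO day 3 and 0.238 in controls. The summed INK4 level was 6.71 RPKM at KO day 4, 10.3 at KO day 3 and 7.92 in controls, and Cdkn2c made up 46.5% of it at KO day 4, 72.7% at KO day 3 and 76.7% in controls. These shares and ratios have no test.

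**Figure D3:**
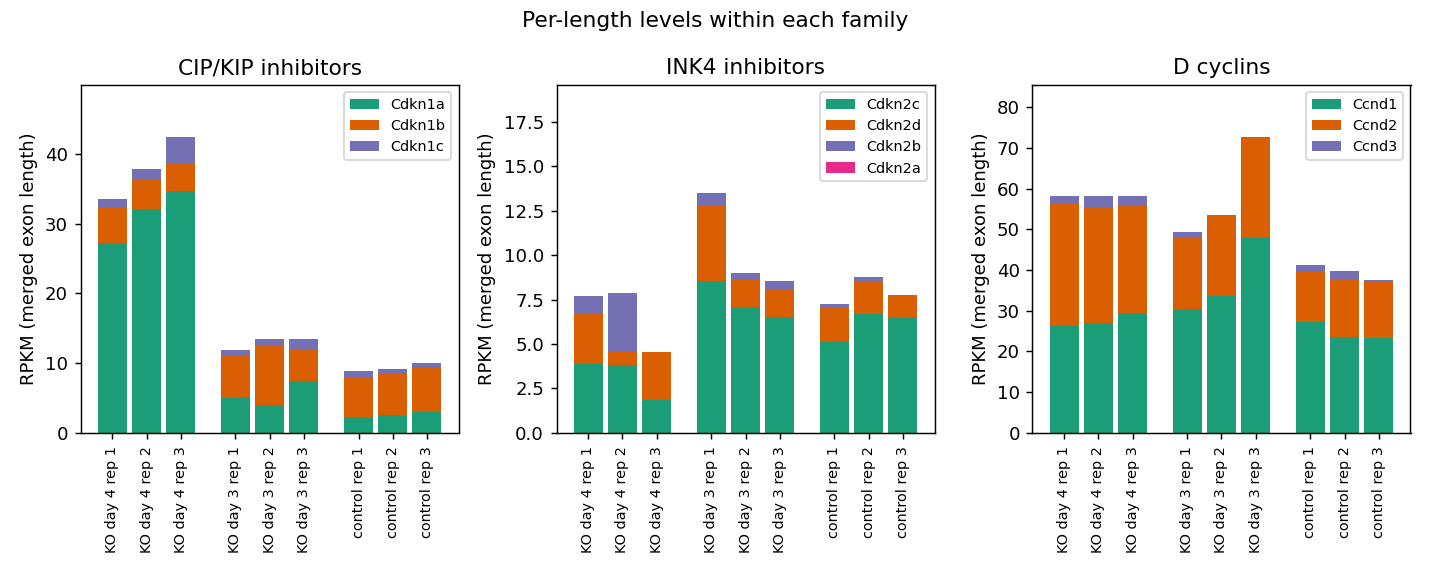
Stacked RPKM of each family in each library, with KO day 4, KO day 3 and control from left to right; colours are genes. Cdkn1a fills most of the CIP/KIP bars at KO day 4 (82.7%), and Ccnd2 takes a larger part of the D cyclin bars at KO day 4 (48.7%) than in the other groups.

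By level per length at KO day 4, Cdkn1a (31.4 RPKM), Ccnd2 (28.3) and Ccnd1 (27.6) led, and their libraries overlapped. Cdkn1b (4.35) and Cdkn2c (3.19) came next without overlapping each other, and the rest overlapped their neighbours. At KO day 3 the order was Ccnd1 (37.4 RPKM), Ccnd2 (20.4), Cdkn2c (7.38), Cdkn1b (6.36) and Cdkn1a (5.49), the last 3 overlapping. In controls it was Ccnd1 (24.7 RPKM), Ccnd2 (13.4), Cdkn2c (6.08) and Cdkn1b (5.96), which overlapped, then Cdkn1a (2.59), Cdkn2d (1.67), Ccnd3 (1.51), Cdkn1c (0.833), Cdkn2b (0.166) and Cdkn2a (0). Ccnd1, Ccnd2 and Cdkn1a did not overlap their neighbours there. Cdkn1a thus stood at the top at KO day 4 and below Cdkn1b in controls.

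Genes of the pathway were examined in lists chosen with earlier results of these data known. Over all tested genes, 11.1% rose and 11.5% fell at KO day 4. Of the kinases that the members bind, Cdk6, a partner of D cyclins, rose (log2 fold change 0.76 at KO day 4, SE 0.18, edgeR adjusted p = 0.012), while Cdk4 was at -0.28 (edgeR adjusted p = 0.34) and Cdk2 at 0.25 (edgeR adjusted p = 0.46). The partner cyclins Ccne1 and Ccne2 were at -0.45 and 0.33 and did not pass (edgeR adjusted p = 0.49 and 0.60). Of 18 tested CDKs, partner cyclins and CDK-phosphorylating enzymes, 1 rose and 2 fell at KO day 4: Mnat1, the assembly factor of the CDK-activating kinase (-1.74), and the mitotic cyclin Ccnb2 (-0.89). Mnat1 had also fallen at KO day 3 (-2.15, edgeR adjusted p = 0.020), a call lost without KO day 3 replicate 3 or any 1 control. The Cdk6 call was lost without control replicate 2, and 1 of the falls without KO day 3 replicate 2 or 3 or any 1 control.

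Of the RB, E2F and DREAM genes, 4 of 19 rose at KO day 4 and none fell, where 11.1% of all genes rose and 11.5% fell. Those 4 were Rb1 (1.18), the activator E2f2 (0.95), the E2F partner Tfdp2 (1.30) and the mitotic activator Foxm1 (1.54). Fewer were called without control replicates 1 and 2 (0 each), control replicate 3 (1) or KO day 4 replicate 2 (1). Of 26 E2F targets of S phase, 5 fell and none rose at KO day 4, among them the primase subunit Prim1 (-1.26), Tk1, a thymidine kinase (-1.07), and the helicase subunit Mcm6 (-0.50), and the list median was -0.20, against -0.06 over all genes. The count was 2 without KO day 4 replicate 3 and without each control in turn, and 3 without KO day 3 replicate 2. Between the KO times 10 of 26 fell, with a median of -0.66, and 6 without KO day 3 replicate 2. Of all genes, 6.03% fell between the KO times. No target was called at KO day 3, with a median of 0.39. None of 20 G2 and mitosis genes was called at either time: Top2a was at 0.20 at KO day 4 and 0.53 at KO day 3, and Ube2c at 0.03 at KO day 4 and 0.48 at KO day 3 (lowest edgeR adjusted p of this pair 0.22). Mki67 was at 0.37 at KO day 4 (edgeR adjusted p = 0.23) and 0.47 at KO day 3 (edgeR adjusted p = 0.30).

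Of 25 tested p53 targets other than Cdkn1a, 14 rose and none fell at KO day 4, where 11.1% of all genes rose. The median was 1.33. Those with the smallest adjusted p were the polo-like kinase Plk2 (2.93), Ccng1 (2.10), the AKT antagonist Phlda3 (3.56) and Sesn2, a stress-induced mTORC1 inhibitor (2.10). Between the KO times 12 rose and none fell. None rose at KO day 3, and Dcxr fell (-1.48). Without KO day 4 replicate 3, 3 targets rose at KO day 3, and 1 without KO day 3 replicate 1 or 2. The Dcxr call was lost without KO day 3 replicate 2 or 3 or any 1 control. The KO day 4 count was 9 without KO day 4 replicate 2, and the count between the KO times fell to 6 without it and to 7 without any 1 KO day 3 library. With library size alone the KO day 4 split turned to 2 higher and 11 lower, although the list median stayed 1.38 above that of all genes. Trp53 itself was at 0.36 and Mdm2 at 0.88 at KO day 4 (edgeR adjusted p = 0.14 and 0.056).

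The genes that act on the members varied one by one. Their counts stand beside 11.1% of all genes that rose and 11.5% that fell at KO day 4. Of 17 tested ubiquitin ligases and deubiquitinases of the members, Cks1b, a cofactor of the ligase that degrades p27, rose (0.76) and Usp2, which stabilises cyclin D1, fell (-1.84). The first call was lost without control replicate 3 and the other without KO day 4 replicate 1 or 2, KO day 3 replicate 3 or any 1 control. Among 17 tested transcription factors with sites in the inhibitor promoters, 3 rose and 3 fell at KO day 4, Sp1 (1.02) and Foxo3 (1.03) among the first, Foxo4 (-1.66) and Zbtb17 (-1.82) among the others. Among 19 that act on D cyclin promoters, 3 rose and 3 fell, Fos (-2.29), Jun (-0.88) and Myb (-0.65) falling and Jund (0.86) rising. Fos had also fallen at KO day 3 (-1.60, edgeR adjusted p = 0.020), a call lost without KO day 3 replicate 2 or 3 or control replicate 1 or 2. Of 15 Polycomb regulators of the Ink4 locus, 2 rose at KO day 4 and none fell, the demethylase Kdm6b (1.96) among them. The rises went down to 1 for the inhibitor factors without control replicate 1 or 3, for the cyclin factors without KO day 4 replicate 2 or any 1 control, and for the Polycomb genes without KO day 4 replicate 3 or any 1 control. The falls among the inhibitor factors went down to 1 without control replicate 1 or 2.

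**Figure D4:**
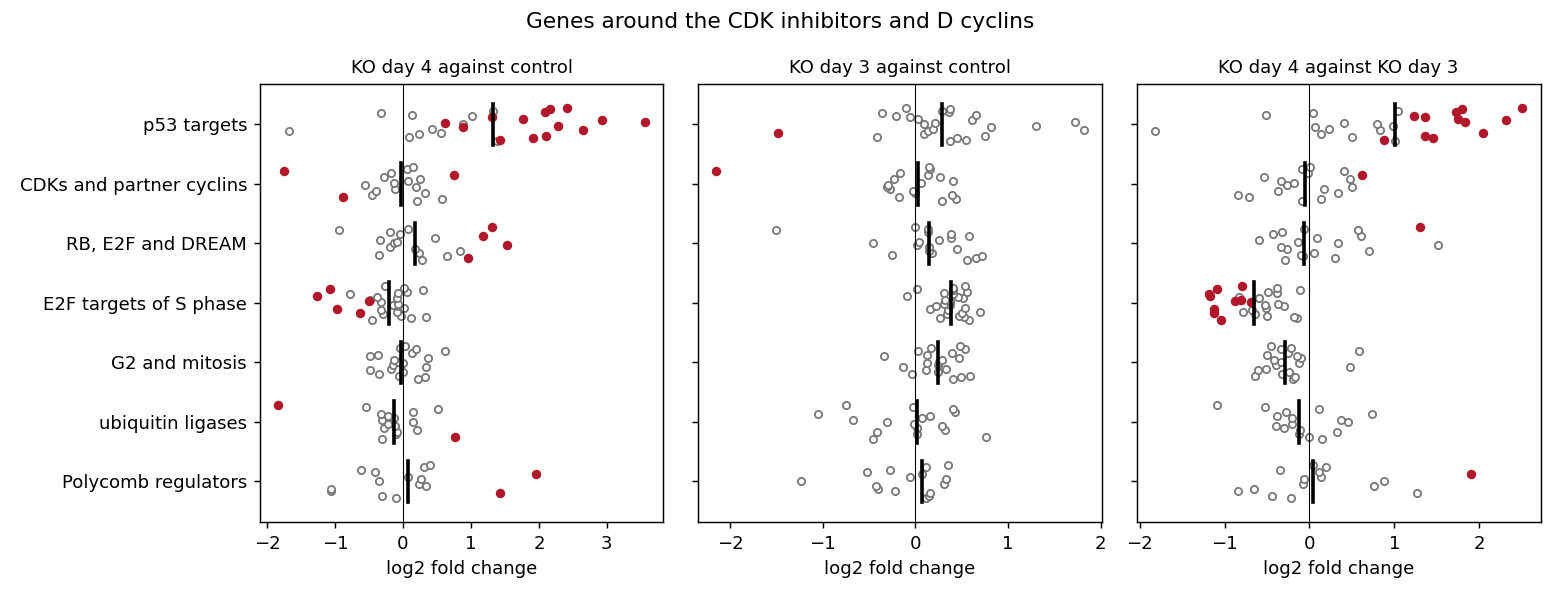
Log2 fold changes of 7 lists in the 3 comparisons, from KO day 4 against control at left to KO day 4 against KO day 3 at right; filled points passed the test and the bar is the list median. The p53 targets lie highest at KO day 4 (median 1.33), and the E2F targets lie lowest between the KO times (median -0.66).

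Across the 9 libraries, the genes whose log2 CPM lay closest to that of a member were found by Pearson correlation over 8040 genes, as a description, since the libraries share depth and composition. Cdkn1a lay closest to Alkbh5 (r = 0.987), Sec24d (0.986) and Map4k4 (0.985), Ccnd2 to Crebzf (0.992) and C1galt1 (0.976), and Cdkn2c to Ndufb6 (0.993), Tm4sf20 (0.988) and Endod1 (0.987). Among the members, Cdkn1a and Ccnd2 correlated at 0.925 and Cdkn1a and Cdkn1c at 0.804, and Cdkn2c ran opposite to Cdkn1c (-0.895) and Cdkn1a (-0.773), each over the 9 libraries. The groups themselves set much of these values, since KO day 4 libraries stand at one end for these genes.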

How the data were processed

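The authors deposited raw counts per Ensembl gene for each of 9 libraries, unpooled. HISAT2 2.0.4 and GRCm38 are named in the submitters' processing notes. Counter, strandedness and annotation version are not given in the sources used here, so reads of overlapping antisense genes cannot be told apart. GENCODE M21 named 51933 of 57180 identifiers. Counts were tested with edgeR 4.0.16 in R 4.3.3: quasi-likelihood F-test, filterByExpr at 10 counts a library and 15 in all, TMM, all 9 libraries in 1 fit, Benjamini-Hochberg adjustment over 13405 genes, threshold 0.05. Replicates differed by more than sampling noise (chi-square over degrees of freedom 12.8 to 89.2) and were kept apart. The labels do not say that replicates are separate animals, so the p-values reflect only how far these samples spread, possibly for technical reasons. RPKM used merged exon length. Limits from 3 counts cover counting error only. Alternatives included DESeq2 1.42.0, limma 3.58.1 voom, other scalings and filters, and leaving out libraries. Leaving out both libraries that stood apart was set beside the tests. Named genes are the members, Kansl1, Lgr5, Mki67, direct partners, up to 4 called genes of each list by smallest adjusted p (2 by level where none was called) and the genes closest to a member by correlation. Not every gene named by this rule is reported here. Trp53, Mdm2 and Dcxr were named after their values were seen. The members and lists were chosen with earlier results of these data known. The scripts were tested on simulated data.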

Additional observations from a re-analysis of the deposited data

Results flagged for a closer look

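Cdkn1a is listed because its effect against control differed between the KO times. The difference, tested as KO day 4 against KO day 3, was a log2 value of 2.51 (SE 0.24; edgeR, adjusted p = 0.0005), higher in 3 of 3 KO day 4 libraries than in any KO day 3 library. Cdkn2c is listed for the same reason, with a difference of -1.19 (SE 0.29, edgeR adjusted p = 0.024), and all 3 KO day 4 libraries lay below every KO day 3 library. The part of library composition in these differences was not tested.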

How the results depend on the processing

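Cdkn1a and Ccnd2 passed at KO day 4 under each alternative run, Ccnd2 in the opposite direction with library size alone; over 3 comparisons and all alternatives, 470 member values kept direction and side of the threshold, 29 newly passed, 13 no longer passed and 18 turned. Causes were not tested. Genes called at KO day 4 against control (3021) were 11057 with library size alone (288 higher, 10769 lower), 1278 against a fold of 1.5, and 1588 to 3839 with 1 library left out. At KO day 3 (59) they were 518 with library size alone, 317 with no filter, 16 against a fold of 1.5, 337 with only the 2 groups, 646 without both libraries that stood apart, 876 by DESeq2, 1423 by voom, and 0 to 345 with 1 library left out. Between the KO times (1682) they were 9508 with library size alone, 409 against a fold of 1.5, 806 with only the 2 groups, 2879 by DESeq2 and 648 to 1802 with 1 library left out. Members called at KO day 4 (3) were 7 with library size alone and 5 by DESeq2, which added Cdkn1c and Cdkn2b. With 1 library left out, 2 to 3 members were called. At KO day 3 (0) they were 1 with no filter, 3 without both libraries, by DESeq2 and by voom, and 0 to 1 with 1 library left out. Between the KO times (2) they were 6 with library size alone, 1 against a fold of 1.5 and with only the 2 groups, 4 by DESeq2 and 1 to 3 with 1 library left out.

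With library size alone the log2 fold change at KO day 4 was -0.54 for Cdkn1c, -1.55 for Cdkn2d, -1.73 for Ccnd1, -0.82 for Ccnd2 and -1.29 for Ccnd3. At KO day 3 it was -0.30 for Cdkn1b and -0.10 for Cdkn2c, and between the KO times -0.59 for Cdkn1c and -1.04 for Ccnd2. Cdkn2d was at -0.13 at KO day 4 and -0.0069 at KO day 3 by voom, and without both libraries at -0.10 at KO day 3 and 0.22 between the KO times. With 1 library left out, Cdkn2d ran from -0.019 to 0.72 at KO day 4, -0.10 to 0.82 at KO day 3 and -0.56 to 0.40 between the KO times, and Cdkn1b from -0.15 to 0.29 at KO day 3. The Cdkn1a share of the CIP/KIP level was 88.8% at KO day 4 and 39.2% in controls by longest transcript, and 24.2% in controls from raw counts; with 1 library left out it was 81.5 to 83.5% at KO day 4, 35.7 to 49.0% at KO day 3 and 26.6 to 28.4% in controls. The Ccnd2 share of the D cyclins from raw counts was 64.0% at KO day 4, 51.5% at KO day 3 and 49.4% in controls, and 38.6% at KO day 3 by longest transcript; with 1 library left out it was 47.0 to 50.4% at KO day 4, 34.5 to 35.8% at KO day 3 and 32.6 to 36.3% in controls.

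Deviations of same-numbered libraries correlated at -0.0543 to 0.132, and those of differently numbered libraries at -0.0874 to 0.0851. Between KO day 3 and control, same-numbered libraries gave 0.068, 0.027 and 0.132, and the others -0.0874 to 0.0115. The check therefore cannot exclude a pairing by replicate number. With the replicate number as a block, 2680 genes were called at KO day 4, 9 at KO day 3 and 1537 between the KO times, and 3, 0 and 2 members. Depth limits Cdkn2b, Cdkn1c and Cdkn2d, which had as few as 0, 20 and 7 counts in a KO day 4 library.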
